A study of Mus musculus with 30 samples.

Results

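Luminal cells of virgin mice with Rank deleted were compared with luminal cells of virgin mice with Rank intact, across all genes measured. The 6 virgin luminal libraries, 3 per genotype, were chosen by their labels out of the 30 libraries of the series. Of the 11137 genes listed for them, 10066 passed the filter on low values and were tested. The series holds 3′ mRNA libraries of luminal and basal mammary cells from virgin and parous females, each library from 1 mouse. The Rank-deleted mice, called K8iΔRank, carried K8rtta, TET-O-CRE, floxed Rank on both alleles and the Rosa mT/mG reporter. The control mice, called K8imTmG, carried the same driver, Cre and reporter without the floxed Rank allele, both lines had a mixed background, and every mouse of both groups received doxycycline at 1 mg per ml in its drinking water. The virgins were age-matched to the parous mice. Doxycycline ran from week 3 to week 8 of age according to the labels, while the methods start it at week 4 and give it for 4 weeks. The sequenced cells were GFP-positive luminal cells (CD24 high, CD49f low) sorted by FACS after blood and endothelial cells had been gated out. The Krt8 promoter drives the recombinase in luminal cells alone, so the basal cells of K8iΔRank mice keep Rank. No label ties a K8iΔRank mouse to a K8imTmG littermate.

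Rank, encoded by Tnfrsf11a, is a receptor of the TNF receptor family, and Rankl (Tnfsf11) is its ligand. In the mammary gland progesterone acts on hormone-sensing luminal cells, which hold the oestrogen and progesterone receptors, and induces Rankl there. Rankl then reaches Rank on neighbouring luminal progenitors and basal cells, where TRAF adaptors pass the signal to NF-κB, and the pathway is known for its part in alveolar growth in pregnancy. Alveolar cells make the milk proteins, among them the caseins and α-lactalbumin, under the control of prolactin, Stat5 and Elf5.

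The deletion was checked in the study by qPCR with primers in the 5′ part of Rank, whereas the libraries count tags from the 3′ end of each transcript. The Rank primers are shown because they mark how far apart the tested stretch and the counted stretch lie, and the Csn3 and Lalba primers because the milk protein results turn on these 2 genes.
Tnfrsf11a forward: agaggcattatgagcatct
Tnfrsf11a reverse: cagactttatgcagcaagca
Csn3 forward: ctacttctgcttaggtctccagc
Csn3 reverse: ggttggaatggcggtgttatcc
Lalba forward: gagtcggagaacatctgtggca
Lalba reverse: cttctcagagcacatgggcttg
The Ensembl canonical Tnfrsf11a transcript of GENCODE vM39 has 6490 bases and 10 exons (chr1:105708358-105777170, plus strand, GRCm39). On it the forward primer lies in exon 2 and the reverse primer in exon 3. The reverse primer starts its match 6178 bases before the 3′ end. The counted tags come from outside the stretch that the primers test, so the counts of Tnfrsf11a do not check the deletion. Which exons the floxed allele removes is not given in the sources used here, and whether a shortened transcript is made was not tested. For Csn3 (chr5:88073438-88080524, plus strand) both primers lie in exon 4 of 4 exons, and for Lalba (chr15:98378281-98380602, minus strand) they lie in exons 2 and 4 of 4.

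Rank tags were few and the genotypes overlapped. Tnfrsf11a had 18.9, 11.5 and 23.8 normalized counts in the 3 K8iΔRank libraries (mice 821, 822 and 825) and 18.6, 14.2 and 9.57 in the 3 K8imTmG libraries (mice 531, 533 and 538), from 6 to 18 and 13 to 29 reads. The difference was 0.33 ± 0.43 (SE) on the log2(normalized count + 1) scale, which holds for every difference given here unless another is named (limma, adjusted p = 0.687). A two-sided exact permutation test of the genotype labels gave p = 0.4, where 0.1 is the smallest p that 3 against 3 libraries allow.

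One property of the 6 libraries touches every result. Clec2d, which encodes a C-type lectin-like ligand of an inhibitory receptor on natural killer cells, had 65.6, 146.1 and 85.9 normalized counts in K8iΔRank and 0.641, 1.05 and 2.21 in K8imTmG. Summed over the mice this was 193 against 6 reads. All K8iΔRank libraries stood above 30 normalized counts and all K8imTmG libraries below, so genotype and Clec2d side coincided in these 6 libraries and cannot be told apart within them. What sets the side is not given in the sources used here. The study's methods report that RNA quality varied over the samples, and no value for each library was available here. In these libraries a genotype difference cannot be told apart from one in RNA quality, preparation or the assignment of labels. The Rank tags do not check that assignment. Over the whole series 14 libraries lay above 30 (65.6 to 199) and 16 below (0.641 to 8.68), with none between, and the high side did not follow one genotype. In virgin basal cells, where Rank is intact in both genotypes, the sides were the other way round. Of the virgin mice, 5 gave both a luminal and a basal library, and in all 5 the 2 libraries of a mouse lay on opposite sides. The libraries above 30 held 340445 to 2677273 reads and put 5.92 to 12.7% of them in their 10 most abundant genes, against 1200781 to 3130419 reads and 3.69 to 5.66% below 30.

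Within the virgin luminal cells the same measures parted the genotypes. K8iΔRank libraries held 1158036, 814455 and 1112352 reads and K8imTmG libraries 2135518, 2422876 and 1862812, and 1 read was worth 1.26 to 1.92 normalized counts in the first and 0.524 to 0.736 in the second. The share of reads in the 10 most abundant genes was 6.27 to 8.80% in K8iΔRank against 4.52 to 4.96%, and the share in mitochondrial genes 3.36 to 4.66% against 2.23 to 2.45%. For each of these 3 measures the groups did not overlap (two-sided exact permutation p = 0.1, the smallest possible). Their part in the differences below was not tested.

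**Figure D1:**
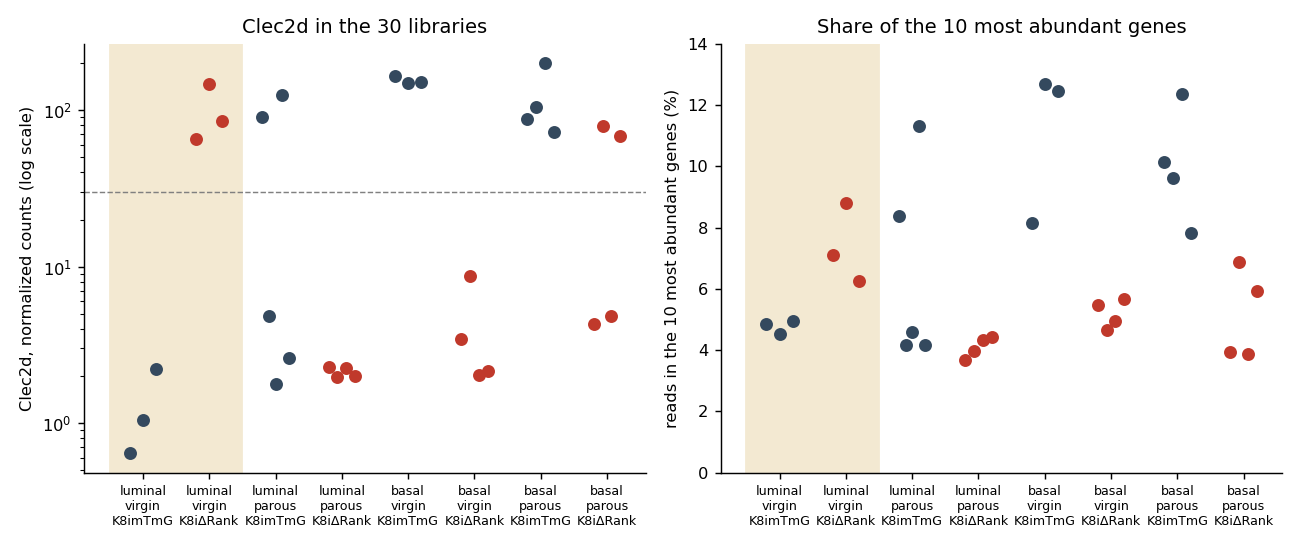
Left, normalized counts of Clec2d (log axis) and right, percent of reads in the 10 most abundant genes, in each of the 30 libraries, 1 point per library, by lineage, stage and genotype (K8iΔRank red, K8imTmG dark), with the virgin luminal groups shaded and a dashed line at 30. The 3 virgin luminal K8iΔRank libraries lie at 65.6 to 146.1 and the 3 K8imTmG libraries at 0.641 to 2.21, while in virgin basal cells the K8imTmG libraries are the high ones.

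The luminal identity of all 6 libraries matched the label. Krt8, the luminal keratin whose promoter drives Cre, had 1704 to 1933 normalized counts in K8iΔRank and 1768 to 3134 in K8imTmG, and Epcam, an epithelial adhesion molecule, had 1107 to 1688. Basal markers were low in both groups. Krt5, a basal keratin, reached 7.93 to 17.7 in K8iΔRank and 2.62 to 5.77 in K8imTmG, against 1079 to 1310 in virgin basal K8imTmG libraries. Acta2, the smooth muscle actin of basal cells, had 109.8, 28.8 and 64.7 against 22.4, 17.8 and 18.4, and in basal libraries 3307 to 5273. The summed level of the 18 basal markers was 242 to 479 in K8iΔRank and 182 to 210 in K8imTmG, that of 16 stromal, endothelial and fat cell markers was 905 to 1055 against 321 to 981, and that of 3 immune markers, the others being not analysed here, was 11.9 to 34.6 against 11.8 to 16.7. Of the lineage-defining immune and fat genes Ptprc, Cd3e, Cd79a, Tyrobp, Adipoq and Plin1, none is analysed here. The basal sum was thus higher in every K8iΔRank library, and its part in the results was not tested. In such bulk samples fewer cells of a type and less RNA per cell cannot be told apart.

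The comparison across all genes called 99 of 10066 genes (0.984%) at an adjusted p below 0.05 with limma, 63 higher in K8iΔRank (0.626%) and 36 lower (0.358%). At an unadjusted p below 0.05 there were 2226 genes, 1065 higher and 1161 lower. The median difference over all genes was −0.03. All 99 genes had groups that did not overlap, as had 1291 genes higher (12.8%) and 1559 lower (15.5%) over all genes, and edgeR and DESeq2 on the recovered reads called all 99 as well. The count rested on single mice. It was 0 without K8iΔRank mouse 822, where 2012 genes had an unadjusted p below 0.05, and it was 3 without mouse 821, 11 without mouse 825, 5 without K8imTmG mouse 533, 70 without mouse 538 and 247 without mouse 531. With the Clec2d side as a term no gene was called either. Side and genotype coincide in these 6 libraries, so that fit takes the side from other libraries and cannot show whether genotype acts.

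**Figure D2:**
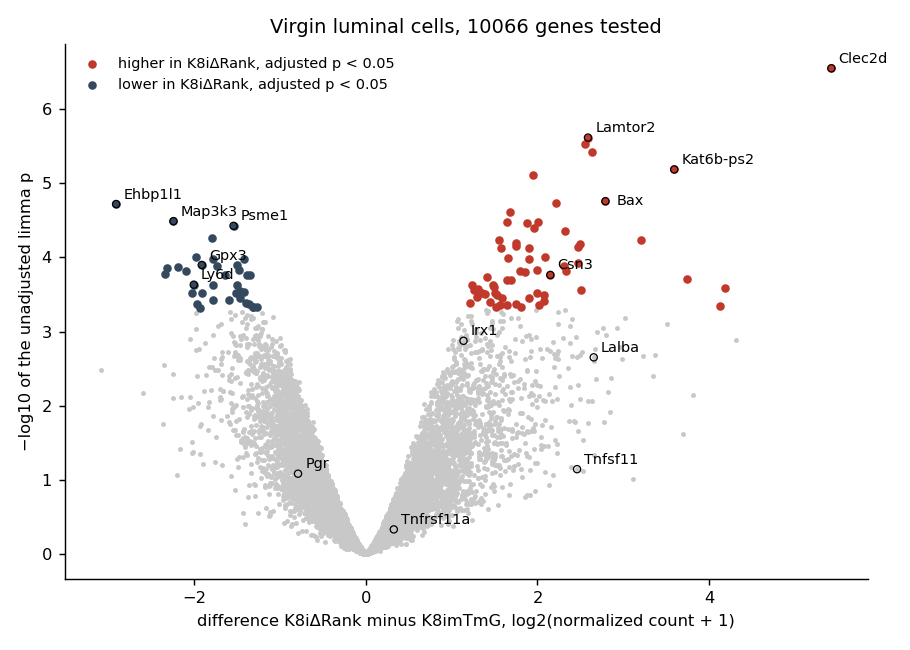
Difference K8iΔRank minus K8imTmG in virgin luminal cells (log2 of normalized count + 1, x axis) against −log10 of the unadjusted limma p (y axis), 1 point per gene, with genes called higher in red and lower in dark. Clec2d stands apart at 5.42, and Tnfrsf11a, Tnfsf11, Pgr, Irx1 and Lalba lie among the genes that were not called.

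RNA tags of κ-casein, a milk protein, were higher in the K8iΔRank luminal libraries. Csn3, which encodes it, had 2509.8, 1398 and 1559 normalized counts in the 3 K8iΔRank libraries and 671, 249 and 373 in the 3 K8imTmG libraries, so the groups did not overlap. The difference was 2.15 ± 0.37 (SE; limma, adjusted p = 0.0349), and edgeR and DESeq2 called it too (adjusted p = 0.0399 and 2.14e-05). Of the 6 limma fits that leave out a mouse, 1 called Csn3. With the Clec2d side as a term the difference was 1.69 ± 0.48 in the 15 luminal libraries (limma, adjusted p = 0.174) and 1.36 ± 0.57 in all 30 (limma, adjusted p = 0.528). The virgin K8iΔRank values overlapped those of parous luminal cells, where Csn3 had 1004 to 1996 in K8iΔRank and 1702 to 2539 in K8imTmG. In virgin basal libraries it had 16.1 to 57.9.

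The other milk genes were not called by limma. Lalba, which encodes α-lactalbumin, the regulatory subunit of lactose synthase, had 23.97, 46.1 and 75.3 normalized counts in K8iΔRank against 18.6, 4.72 and 2.21, with no overlap (2.66 ± 0.66, limma, adjusted p = 0.0692). It was past the threshold with array quality weights, with DESeq2 and without control mouse 531. Xdh, a xanthine oxidoreductase needed for milk fat secretion, had 160.3, 465 and 321 against 148, 89.1 and 115 (1.32 ± 0.38, limma, adjusted p = 0.0917), and Mfge8, a milk fat globule protein, had the lower values in K8iΔRank, 1287 to 1652 against 2127 to 3071. Btn1a1, the butyrophilin of the milk fat globule, overlapped between the genotypes at 143, 258 and 184 against 261, 60.8 and 83.2. Csn2 (β-casein) had 1 read in each group, in mice 821 and 531, and was not tested, and Csn1s1 (αS1-casein) overlapped at 2.64 to 38.5 against 6.41 to 9.96. Of the 11 milk protein and secretion genes tested, 1 was called higher and none lower, 5 had an unadjusted p below 0.05 and DESeq2 called 4. Of the 11, 8 lay above 0, and the median difference was 0.63 beside −0.03 over all genes.

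The wider alveolar lists are given beside all 10066 genes, of which 99 (0.984%) were called, 2226 had an unadjusted p below 0.05 and DESeq2 called 640. Of 43 tested genes of the alveolar set of gestation, a list the study used, 1 (Csn3) was called and DESeq2 called 5. Of the 43, 15 had an unadjusted p below 0.05, 31 lay above 0 and the median was 0.46. Of 191 tested genes of the study's luminal alveolar set, 3 were called higher (Csn3, Cldn7 and Cck) and 2 lower (Fam110a and Usp2). DESeq2 called 30 of the 191, 66 had an unadjusted p below 0.05 and the median was 0.20. The study used the first list on the luminal cells of this series and reports the second for its basal cells. Both were taken from the study and are not independent evidence of a direction. Cldn7, a tight junction claudin, had 543, 946 and 589 in K8iΔRank against 177, 219.7 and 205, and the difference of 1.74 ± 0.27 (limma, adjusted p = 0.0296) came to −0.01 with the Clec2d side as a term in the 15 luminal libraries. Cck, which encodes the peptide hormone cholecystokinin, had 231, 379 and 268 against 105.7, 66.6 and 127 (1.56 ± 0.31, limma, adjusted p = 0.0487).

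Among alveolar transcription factors, 13 tested, none was called by limma or edgeR, 1 by DESeq2, and 4 had an unadjusted p below 0.05, with a median of 0.06. Irx1, an Iroquois homeobox factor, had 430.3, 552 and 353 normalized counts in K8iΔRank against 168, 241 and 192, and the groups did not overlap (1.14 ± 0.26, limma, adjusted p = 0.0645). DESeq2 called Irx1. With the Clec2d side as a term its difference was −0.01 in the 15 luminal and −0.02 in all 30 libraries. Elf5, the factor that specifies alveolar cells, overlapped at 104.7, 154 and 135 against 119, 93.3 and 56.7. Stat5a, which carries the prolactin signal, overlapped at 136, 108 and 299.9 against 197, 126 and 86.1.

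Promoter letters were read for the casein genes, since Stat5 binds a palindrome of this kind. The motif TTCNNNGAA, its own reverse complement, was searched from 250 bases before to 50 after each RefSeq gene start (GRCm38.p6). The windows around the match are shown for the 2 casein genes with a match, with the motif in capitals.
Csn1s1, chr5:87666098-87666127, plus strand: tttgtaacaaTTCTTAGAAtttatgtaaaa
Csn2, chr5:87699499-87699528, minus strand: tcacgtagacTTCTTGGAAttgaagggact
Neither gene was called in these cells, and Csn3 has no promoter in the table used. The motif stood in 6 of 37 matched promoters of genes called higher (16.2%), 3 of 27 of genes called lower (11.1%), 644 of 7911 of the genes tested (8.14%) and 2582 of 27025 of all promoters (9.55%). A match is a run of letters, not a bound site.

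**Figure D3:**
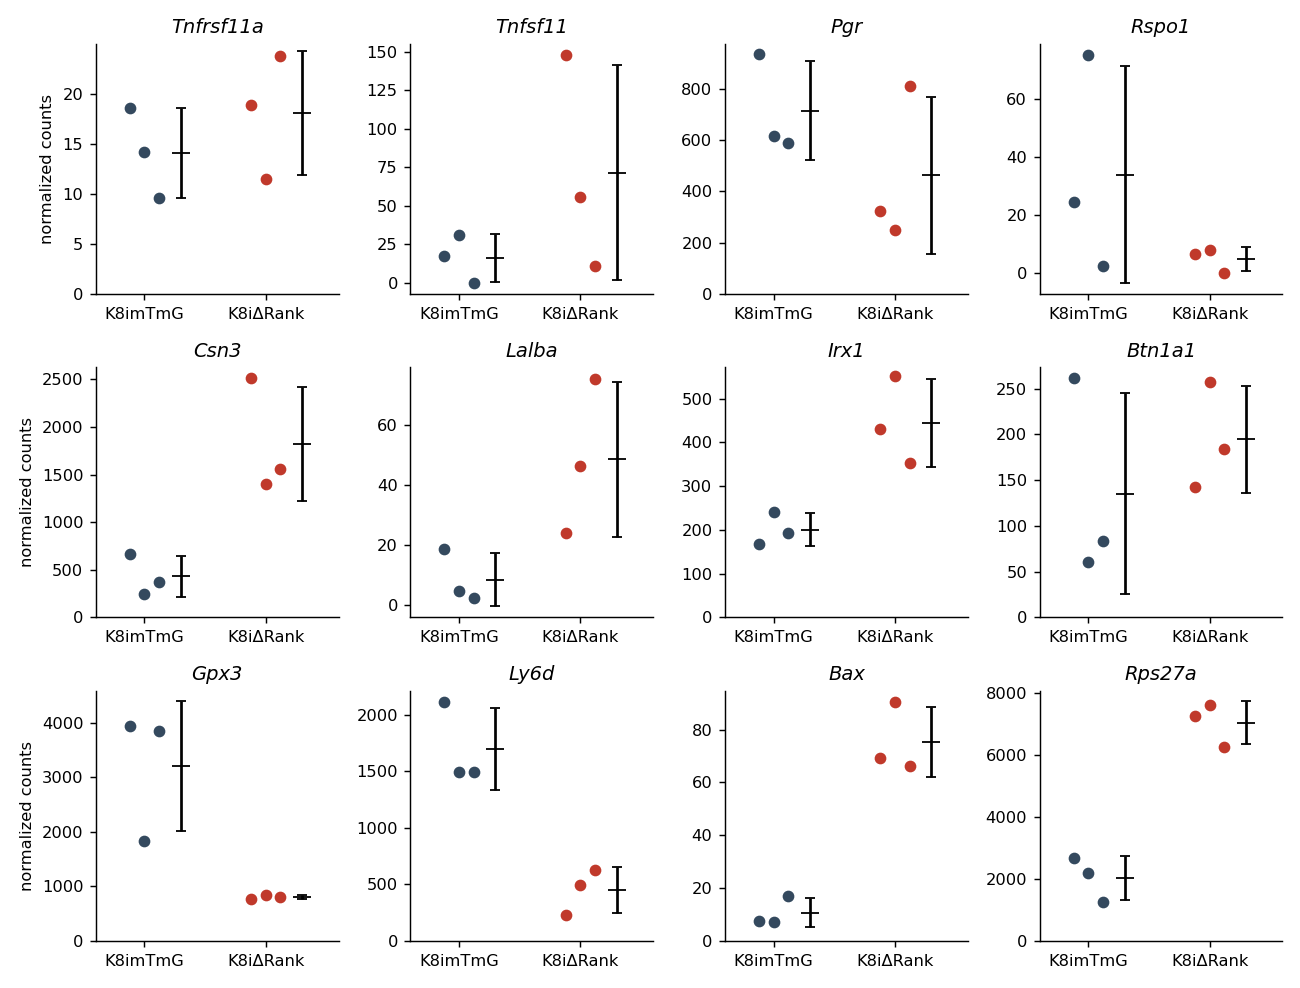
Normalized counts of 12 genes in the 3 K8imTmG (dark) and 3 K8iΔRank (red) virgin luminal libraries, 1 point per mouse, with the mean and SD beside them in black. Csn3, Lalba, Irx1, Gpx3, Ly6d, Bax and Rps27a do not overlap between the genotypes, while Tnfrsf11a, Tnfsf11, Pgr, Rspo1 and Btn1a1 do.

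The Rank pathway itself showed no gene called by limma. With the Clec2d side as a term Tnfrsf11a had a difference of 2.03 ± 0.48 in the 15 luminal libraries (limma, adjusted p = 0.167). In all 30 libraries it had 1.29 ± 0.45 (limma, adjusted p = 0.440). Between the Clec2d sides of the parous K8imTmG luminal libraries, high minus low, Tnfrsf11a had −1.70. Rankl (Tnfsf11), the ligand, had 147.6, 55.8 and 10.6 normalized counts in K8iΔRank and 17.3, 30.9 and 0 in K8imTmG, and the spread within each genotype was as wide as the gap between them (2.46 ± 1.22, limma, adjusted p = 0.268; two-sided exact permutation p = 0.3). Of 27 tested pathway genes none was called by limma or edgeR, 2 were called by DESeq2, 5 had an unadjusted p below 0.05, and the median was −0.06. Sqstm1, the p62 scaffold that binds TRAF6, had 317, 294 and 470.3 against 764, 729.8 and 985 (−1.21 ± 0.26, limma, adjusted p = 0.0588). The NF-κB subunits did not lean one way. Rela (70.7, 51.9 and 67.4 against 138, 135 and 115) and Nfkb2 (32.8, 44.2 and 52.8 against 82.7, 81.3 and 97.1) had the lower values in every K8iΔRank library, and Nfkb1 (75.7, 71.1 and 97.8 against 66.6, 41.4 and 41.2) the higher ones. By limma none of these passed the threshold, while DESeq2 called Sqstm1 and Rela. With the Clec2d side as a term in the 15 luminal libraries Rela had a difference of 0.11 and Nfkb2 one of 0.36. Between the Clec2d sides of the parous K8imTmG luminal libraries, high minus low, they had −1.14 and −1.37. Of 25 tested NF-κB response genes none was called by limma or edgeR, 1 by DESeq2, and 5 had an unadjusted p below 0.05, with a median of −0.22. Rspo1, a Wnt-enhancing R-spondin made by luminal cells, had 6.31, 7.69 and 0 against 24.4, 74.97 and 2.21, and the groups overlapped (−2.20 ± 1.15, limma, adjusted p = 0.291). The Bcl2a1 paralogs are not analysed here.

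Luminal progenitor and hormone-sensing markers held 1 called gene each. Of 18 tested luminal progenitor markers 1 was called (Csn3), and DESeq2 called 3. Of the 18, 6 had an unadjusted p below 0.05, 15 lay above 0 and the median was 0.53. Hey1, a Notch target, had 389, 599.9 and 429 in K8iΔRank against 127, 172 and 291, and Tspan8, a tetraspanin, 98.4, 44.2 and 131 against 39.7, 35.1 and 25.8, both without overlap and uncalled by limma. DESeq2 called Hey1. Kit, the stem cell factor receptor that marks progenitors, overlapped at 246, 115 and 254 against 188, 140.0 and 94.9.

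Of 23 tested hormone-sensing markers 12 had an unadjusted p below 0.05, DESeq2 called 5, and the median was −0.24. By limma 1 was called, lower. It was Gpx3, a secreted glutathione peroxidase, with 769.7, 848 and 802 in K8iΔRank against 3946, 1831 and 3852 (−1.91 ± 0.32, limma, adjusted p = 0.0349). Pgr, the progesterone receptor, overlapped at 323, 249.97 and 812 against 936, 617 and 588, as did Esr1, the oestrogen receptor, at 196 to 292 against 146 to 326. Members of the list went both ways. Ptn, a heparin-binding growth factor (736, 579 and 1886 against 3169, 2524 and 3257), and Prom1 had lower values in every K8iΔRank library, whereas Foxa1, a pioneer factor of the oestrogen receptor (975, 481 and 783 against 417, 358 and 248), and Cited1 had higher ones, all uncalled by limma. Ly6d, a luminal surface antigen chosen after its values were seen, had 232, 496 and 631 against 2117, 1492 and 1490.3 (−2.003 ± 0.363, limma, adjusted p = 0.0409). With the Clec2d side as a term in the 15 luminal libraries, the hormone-sensing median was −2.54 and that of 37 cell cycle genes 2.86, beside −0.24 and 0.65 without it. In that fit the side was estimated from the parous K8imTmG libraries, 2 high against 3 low, which differed in the same lists, by a median of 1.77 and −2.10.

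Cytosolic ribosomal and respiratory chain genes had more values above 0 than below. Of 77 cytosolic ribosomal protein genes 2 were called higher, Rps27a and Rpl35a, and the median was 0.85. Of the 77 genes, 67 lay above 0, 39 were higher without overlap, 42 had an unadjusted p below 0.05 and DESeq2 called 31. Over all 10066 genes 0.984% were called and 12.8% were higher without overlap. There 2226 had an unadjusted p below 0.05 and DESeq2 called 640. Rps27a, which encodes a ubiquitin fused to a ribosomal protein, had 7244, 7593 and 6246 in K8iΔRank against 2661, 2180.0 and 1255.5 (1.85 ± 0.32, limma, adjusted p = 0.0349), and reads from its copy Rps27a-ps1 may be shared with it. Rps27a turned to −0.56 and Rpl35a to −0.76 with the Clec2d side as a term in the 15 luminal libraries. Of 71 oxidative phosphorylation genes 3 were called higher, Ndufb4, Cox7b and Uqcrb, subunits of complexes I, IV and III. Of the 71, 56 lay above 0, 33 had an unadjusted p below 0.05, DESeq2 called 22 and the median was 0.52. The ribosomal median was 0.30 after quantile normalization, and with the Clec2d side as a term in the 15 luminal libraries the medians were −0.53 and −0.32. In virgin basal cells they were −1.23 and −0.64. Mitochondrial ribosomal proteins (75 tested) and translation factors (48 tested) had no called gene by limma or edgeR, with 16 and 18 genes at an unadjusted p below 0.05, 3 and 6 called by DESeq2, and medians of 0.09 and −0.11.

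Cell death and cell cycle genes gave single calls in both directions. Bax, the pore-forming effector of apoptosis, had 69.4, 90.4 and 66.1 in K8iΔRank against 7.69, 7.34 and 16.9 (2.79 ± 0.37, limma, adjusted p = 0.0216), and Bcl2l13, a mitochondrial Bcl2 relative, fell (18.9, 26.9 and 31.7 against 81.4, 87.6 and 75.1). With the Clec2d side as a term in the 15 luminal libraries Bax had a difference of −0.43. Cdkn1a, the cyclin-dependent kinase inhibitor p21, fell from 299.9, 179.8 and 308 to 83.3, 88.4 and 59.4 (−1.73 ± 0.29, limma, adjusted p = 0.0349). In the fit with the side term Cdkn1a had −0.39 and Bcl2l13 −0.61. Of the 37 cell cycle genes none was called by limma or edgeR, 1 by DESeq2, and 5 had an unadjusted p below 0.05, with 29 above 0. Cenpf, a kinetochore protein, had 84.5, 71.1 and 37.0 against 7.05, 51.9 and 23.5 and overlapped.

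Antigen presentation and interferon genes had calls without a common direction. Bst2, the interferon-induced tetherin, rose from 53.2, 67.6 and 98.6 to 247, 348 and 275 (2.004 ± 0.286, limma, adjusted p = 0.0246), and Isg15, a ubiquitin-like modifier, from 8.97, 16.8 and 12.5 to 58.0, 34.6 and 47.6. The medians of the 24 interferon-stimulated genes and of the 18 MHC class I and immunoproteasome genes were −0.17 and 0.28. H2-Q4, a nonclassical class I gene with near-identical relatives, rose, and Psme1, a subunit of the proteasome activator PA28, fell from 387, 356 and 446 to 141, 131 and 133. Bst2 turned to −0.97 and H2-Q4 to −0.49 with the Clec2d side as a term in the 15 luminal libraries. Isg15 had 0.08 and Psme1 −1.14 in that fit. Hspe1, the mitochondrial cochaperonin, was the 1 call among 16 heat shock chaperones (618, 435 and 661 against 237, 199 and 196). Cldn7 was the 1 call among 18 claudin and tight junction genes. The remaining lists had no call by limma or edgeR, 0 to 4 calls a list by DESeq2 and 0 to 11 genes at an unadjusted p below 0.05, and their medians ran from −0.71 for the 7 luminal and basal keratins tested to 1.02 for the 10 stromal, endothelial and fat cell markers tested. None of the immune markers passed the filter.

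**Figure D4:**
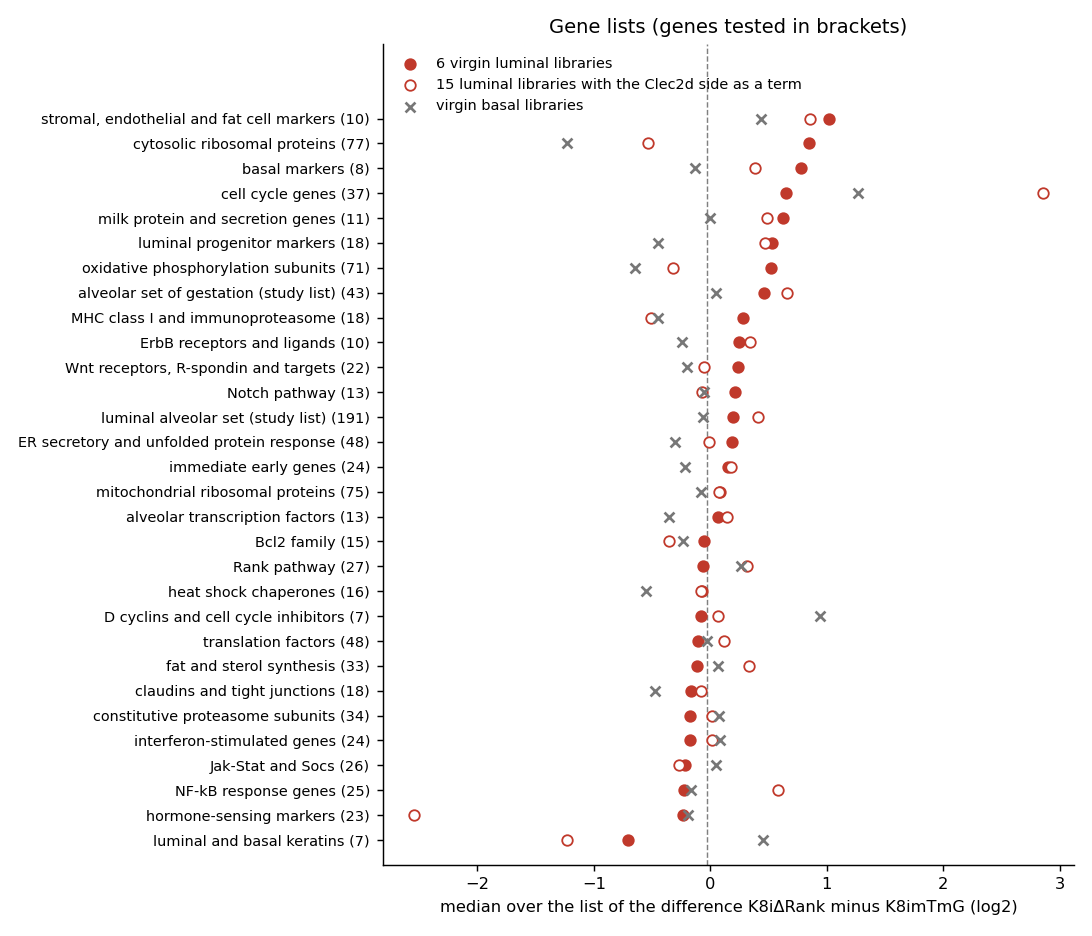
Median difference K8iΔRank minus K8imTmG (log2) over the tested genes of each list with at least 7 of them, in the 6 virgin luminal libraries (filled), in 15 luminal libraries with the Clec2d side as a term (open) and in virgin basal libraries (cross), with all genes tested in virgin luminal cells as the dashed line at −0.03. The cytosolic ribosomal list lies at 0.85, −0.53 and −1.23, whereas the milk protein list lies at 0.63, 0.49 and 0.

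The genes with the lowest p were not those of a single pathway. Among the highest were Lamtor2, a subunit of the Ragulator complex that anchors mTORC1 to lysosomes (290.2, 456 and 444 normalized counts in K8iΔRank against 53.2, 60.8 and 80.2), and Sertad3, a transcriptional coregulator (89.6, 119 and 109.6 against 15.4, 20.97 and 15.5). The difference was 2.59 ± 0.28 for Lamtor2 (limma, adjusted p = 0.00975). Sumo2, a small ubiquitin-like modifier, Arpc3, an Arp2/3 subunit, and Tnfrsf12a, the receptor of TWEAK, also rose, by 1.88, 1.69 and 2.22. Lamtor2 turned to −0.48, Sumo2 to −0.68, Arpc3 to −0.13 and Tnfrsf12a to −0.64 with the Clec2d side as a term in the 15 luminal libraries. Among the lowest were Map3k3, a kinase upstream of MAP kinases (26.5, 17.3 and 15.9 against 71.1, 100.7 and 121), Ehbp1l1, which takes part in apical transport (6.31, 5.77 and 9.25 against 45.5, 47.7 and 93.5), and the glycolytic enzyme Aldoa (132, 133 and 156 against 519.7, 366 and 903). Upf1, an RNA helicase of nonsense-mediated decay, fell by 2.09. In the fit with the side term Upf1 had −0.23, and Map3k3, Ehbp1l1 and Aldoa had −1.36, −2.41 and −1.77.

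The called genes differed by direction in gene type and length. The 63 higher genes held 45 protein-coding genes, 9 long noncoding RNAs, 5 pseudogenes and 14 genes with a Gm name, while all 36 lower genes were protein-coding. Of all 10066 genes tested, 9456 were protein-coding, 180 long noncoding RNAs and 125 pseudogenes, and 251 had a Gm name. Most tested genes were thus protein-coding, as all the lower genes were. Gm3699, Gm37065, Gm48225, Gm16630, Gm37052, Gm29680, Kat6b-ps2 and Clec2d passed the filter on low values through K8iΔRank libraries alone. All their K8imTmG values were below the filter's minimum, so they could be called only as higher. Ehbp1l1 passed through K8imTmG libraries alone. A read was worth more normalized counts in K8iΔRank, so the minimum stood for fewer reads there. The part of the filter in the type contrast was not tested. The median transcript length was 1415 bases for 62 higher genes with a known length and 3886.5 for the lower ones, against 3492 for all tested genes with one (97.9% of them). Transcripts under 1000 bases made up 27.4% of the higher, 2.78% of the lower and 5.75% of all. The median difference fell with length over all genes, from 1.13 under 500 bases (110 genes) and 0.51 at 500 to 1000 (456 genes) to −0.10 from 4000 (4078 genes). In the parous K8imTmG luminal libraries, where the genotype is constant, the difference between Clec2d-high and Clec2d-low libraries ran from 1.49 to −0.14 over the same bins, and in virgin basal cells that between genotypes ran from −1.32 to 0.18. By GC content the order differed. The median virgin luminal difference ran from 0.18 for transcripts under 40% GC (419 genes) to −0.23 from 55% (2233 genes), that between the sides of parous K8imTmG libraries from 0.02 to −0.03, and that in virgin basal cells from −0.02 to 0.20. Of 98 called genes with a known position, 26 overlapped another gene on the same strand, so their tags may be shared, and for the Gm genes the source of the tags is uncertain.

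The 99 genes were then read in the other libraries. These comparisons partly share libraries with each other and are descriptions without a test. In virgin basal cells genotype and Clec2d side coincide again, the other way round, and all 63 genes called higher in luminal K8iΔRank cells had the lower mean in K8iΔRank (median −2.04). In parous K8imTmG luminal cells, all 63 were higher in the 2 Clec2d-high than in the 3 Clec2d-low libraries (median 1.998), close to their median of 1.88 in the virgin comparison. Between the genotypes in parous luminal libraries on the low side alone, 38 lay above 0 and 25 below, with a median of 0.09. The 36 genes called lower had a median of −0.85 between the Clec2d sides of parous K8imTmG cells, 28 of them below 0, and 30 of 36 lay above 0 in virgin basal cells. Over all genes tested, 67.6% had the same sign in the virgin luminal comparison as between the sides of parous K8imTmG luminal cells, and 25.7% the same sign as in virgin basal cells. Over all 30 libraries 245 genes parted the Clec2d sides without overlap, 36 of them among the 99. Such genes part the 6 virgin luminal libraries by construction, since side and genotype coincide there, so this overlap is a description.

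**Figure D5:**
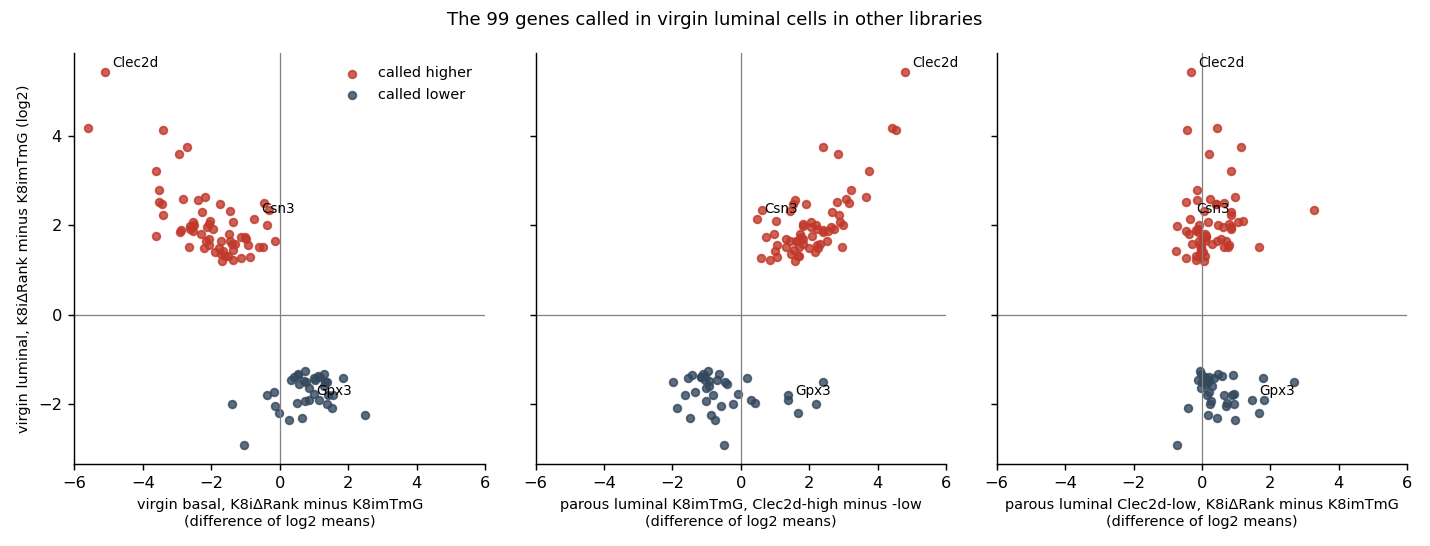
Difference in virgin luminal cells (log2, y axis) of the 99 called genes against their difference of log2 means elsewhere (x axis), with genes called higher in red and lower in dark: left, virgin basal genotypes; middle, Clec2d-high minus -low libraries of parous luminal K8imTmG cells; right, genotypes in parous luminal Clec2d-low libraries. All 63 genes called higher lie left of 0 in the left panel and right of 0 in the middle panel.

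With the side as a term, fitted in 15 luminal libraries, 25 of the 63 higher genes kept a difference above 0 (median −0.18) and 33 of the 36 lower genes one below 0 (median −0.88), and in the fit of all 30 libraries these were 38 and 35. Over all genes 60.2% and 63.2% kept their sign. No gene was called in either fit by limma, where 1559 and 826 genes had an unadjusted p below 0.05. Among the lower genes, 8 had the opposite sign between the sides in parous controls: Gpx3, Tox2, Fer1l4, Ly6d, Gcnt2, Sec14l4, Dkkl1 and Ndrg2, a group chosen after the values were seen. The fit in 15 libraries subtracts this side difference from the virgin difference. For genes chosen in this way a value further below 0 therefore follows by construction. Their differences with the side term in 15 libraries were −1.60 to −4.21, with limma adjusted p of 0.167 to 0.282. Of these Fer1l4, a ferlin family member, had 8.83, 11.5 and 14.5 normalized counts in virgin luminal K8iΔRank against 38.4, 54.0 and 82.4 in K8imTmG, and Tox2, an HMG-box factor, 297, 319 and 325 against 698, 869 and 1161.

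Whether the virgin differences differed from the parous ones was tested as an interaction of genotype and stage in the 15 luminal libraries. It called 1326 of 10262 genes (12.9%), 590 with the higher difference in virgin cells and 736 with the lower, and 73 of the 99 genes were among them. For Csn3 the virgin difference exceeded the parous one by 2.70 (limma, adjusted p = 0.00765), and for Irx1 by 2.42. All parous K8iΔRank luminal libraries lay on the low Clec2d side and all virgin ones on the high side, so stage and side are mixed in this test. Without the 2 high parous K8imTmG libraries 1173 genes were called, and with the side as a term 5.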

How the data were processed

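Sorted luminal and basal cells were profiled with a directional 3′ mRNA kit with unique molecular identifiers (UMIs). The authors trimmed the 86-base reads with BBDuk, removed duplicates by 6-base UMIs with UMI-tools, mapped to GRCm39 with Bowtie2, counted genes of Gencode vM26 and scaled by DESeq2 size factors. The deposited values are these normalized counts, a signal and not raw counts, for genes above 10 in at least 25% of samples by the authors' filter. The strand setting of the counting is not given in the sources used here.

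Each value was divided by the worth of 1 read in its library, which gave whole reads for 100% of values within 0.01. Depth was 814455 to 2422876 reads. A gene was tested if it passed 10 normalized counts in 2 or more of the 6 libraries. The 3 and 3 libraries were compared with limma 3.58.1 (mean-variance trend, log2 values with a pseudocount of 1) and p-values were adjusted by Benjamini-Hochberg over all genes tested. The study's own DESeq2 test was an alternative (DESeq2 1.42.0, edgeR 4.0.16 on recovered reads), beside pseudocounts of 0.5 and 4, other filters, scalings and weights, all luminal libraries in one fit, the Clec2d side (30 normalized counts) as a term, and each mouse left out. The interaction used 15 luminal libraries. Replicates are separate mice, and no 2 libraries of a group agreed within sampling noise. Differences on this scale understate the change of low genes.

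Named genes were those the study measured by qPCR, those whose Clec2d sides lay 0.75 or more apart (log2), up to 15 called genes per direction with the lowest p, and called or lowest-p members of each list. Others, among them Kit, Esr1, Epcam, Prlr, Ly6d and the cell markers, were chosen after their values were seen. One gene that meets the rule is not reported here. The members and the lists were chosen with earlier results of these data known. The tests were tried on simulated data. R 4.3.3 and Python 3.11.15 (pandas 2.3.3, matplotlib 3.10.9) were used.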

Additional observations from a re-analysis of the deposited data

Results flagged for a closer look

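Single libraries stood apart from the rest of their group for 2 genes by Dixon's test, which flags about 1 in 20 groups by chance. Groups of 3, the virgin luminal groups included, were not tested. Rspo1 had 89.0 normalized counts in parous luminal K8iΔRank mouse 787 (the others 3.44 to 16.4) and 0 in virgin basal K8iΔRank mouse 820 (the others 3.72 to 4.30). Csn2 had 694 in parous luminal K8iΔRank mouse 787 (the others 8.84 to 46.7) and 66.1 in the basal library of the same mouse (the others 4.78 to 15.0).

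The virgin and parous genotype differences in luminal cells differed for 1326 genes (limma interaction, adjusted p below 0.05). The values below are the virgin minus the parous difference (log2) for the named genes among them. Milk and alveolar genes were Csn3 at 2.70 and Irx1 at 2.42. Of the genes that part the Clec2d sides, Clec2d had 7.65, Gm3699 6.38 (a size set by the pseudocount, since no virgin control had a read), Rps27 4.64, Kat6b-ps2 4.52, Rps27a-ps1 4.52, Bax 4.21, Lamtor2 3.60, Gm5963 3.53, Metrn 3.43, Sumo2 3.37, Ndufb4 3.13, H2-Q4 3.02 and Rnf10 2.12. Other genes higher in virgin K8iΔRank cells were Sertad3 at 3.32, Bst2 at 3.29, mt-Nd6 at 2.85 and Arpc3 at 2.37. Genes lower there were Rcan1 at −3.61, Tmprss13 at −3.35, Fer1l4 at −3.18, Aldoa at −2.99, Map3k3 at −2.77, Fam110a at −2.76, Cdkn1a at −2.49, Upf1 at −2.41, Bnip2 at −2.38, Ehbp1l1 at −2.37, Hadha at −1.97 and Psme1 at −1.82. Stage, genotype and Clec2d side are mixed in these differences, and the part of the side was not tested for single genes beyond the fit with 5 calls.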

How the results depend on the processing

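The count of 99 called genes was 5 without a filter, 2514 with array quality weights (whose estimation stopped before its tolerance), 640 with DESeq2, 138 with edgeR, and 0 with the Clec2d side as a term in 15 or 30 libraries; leaving out 1 mouse gave 0 to 247. In one fit of all 15 luminal libraries 98 genes were called, 34.7% of them higher against 63.6%, and 32 of the 99 kept. The interaction count of 1326 was 2671 with array quality weights, 5 with the side term and 336 to 1533 with 1 mouse left out: 336 without control 538, 502 without K8iΔRank 821 and 817 without control 533. The causes were not tested. No gene was called in all 6 fits that leave out a mouse; Clec2d and Lamtor2 were in 5. Among the genes followed through all these settings, differences that changed sign did so with the side term. Some uncalled list members were outside that set, and of these Rela and Nfkb2 changed sign in the 15 luminal libraries too. In the 15 luminal libraries Rspo1 had 0.42, Irx1 −0.011, Lamtor2 −0.48, Gm15965 −1.01, Gm12207 −0.67, Bax −0.43, Tnfrsf12a −0.64, Arpc3 −0.13, Bst2 −0.97, Sumo2 −0.68, Gm44873 −0.10, Gm16630 −0.53, Bnip2 0.14, Gm3699 −0.41, Rps27 −0.26, Gm5963 −0.72, Ndufb4 −0.83, H2-Q4 −0.49, Cldn7 −0.012, Usp2 0.086, Rps27a −0.56, Rpl35a −0.76, Cox7b −0.10 and Uqcrb −0.37. In all 30 libraries Irx1 had −0.020, Lamtor2 −0.28, Bax −0.31, Tnfrsf12a −0.13, Bst2 −0.38, Sumo2 −0.41, Bnip2 0.16, Gm3699 −0.22, Rps27 −0.48, Gm5963 −0.74, Metrn −0.14, Ndufb4 −0.59, Cldn7 −0.087, Rps27a −0.14, Rpl35a −0.47 and Uqcrb −0.35. Over the named genes and settings, 610 differences stayed on their side of the threshold, 308 fell below it and 14 passed it. Of the list medians 518 moved by less than the spread between mice and 39 by more. With 3 mice a group, few reads limit Rank, Rankl and Rspo1. No paired analysis was possible because the 2 groups came from different mice that share no replicate number.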

Other observations

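Lists outside the alveolar and Rank programmes were read as values. The keratins tested, 7 in all, had a median of −0.71 with 6 below 0, and Krt7 (298, 304 and 317 normalized counts in K8iΔRank against 931, 502 and 782) and Krt19 (616, 542 and 715 against 1501, 1113 and 1006) did not overlap. Limma called neither Krt7 nor Krt19, while DESeq2 called both. Immediate early transcription factors gave both orders, with Junb at 1923 to 2109.8 in K8iΔRank against 563 to 1045 and Klf4 at 525 to 1339.6 against 1925 to 2226. Limma called neither (adjusted p = 0.0627 and 0.0656), while DESeq2 called both. With the Clec2d side as a term in the 15 luminal libraries Junb had 0.01 and Klf4 −0.04. Between the Clec2d sides of the parous K8imTmG luminal libraries, high minus low, they had 1.28 and −1.48. Prlr, the prolactin receptor, had 3377, 3225 and 6308 against 7604, 5943 and 6867.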
